A study of Mus musculus with 19 samples.

Results

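The RNA levels of 10 genes that carry the Wnt/β-catenin signal were described across 10 mouse liver tumours. The genes were given as a list of symbols, matched to Ensembl identifiers, and all 10 were found among the 39179 gene identifiers of the count table. They are β-catenin itself (Ctnnb1), the destruction complex genes Apc, Axin1 and Gsk3b, the DNA-binding factors Tcf7, Tcf7l1, Tcf7l2 and Lef1, and the adaptors Bcl9 and Bcl9l. The series holds 13 tumours, 3 control livers and 3 high AAV control livers. Only tumours 04 to 13 were analysed here, so no level was set against non-tumour liver. All 10 tumours came from male mice that were heterozygous for Ctnnb1tm1Mmt and homozygous for the Cre-inducible human MYC transgene Gt(ROSA)26Sortm1(MYC)Djmy. Every mouse received AAV8.TBG.PI.Cre.rBG at 640000000 genome copies, an adeno-associated virus in which the hepatocyte promoter TBG drives Cre. The study induced adult mice of mixed background and sampled tumours at the end stage, and the comparison asked about variation between such tumours.

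β-Catenin links cadherins to the cytoskeleton at cell junctions and is also the transcriptional effector of Wnt signalling. Without a Wnt signal, the scaffolds APC and AXIN1 hold it so that kinases, GSK3β among them, can phosphorylate it, after which it is ubiquitinated and degraded. When it escapes, it enters the nucleus, binds TCF/LEF factors and recruits BCL9 proteins and other coactivators. In healthy liver this programme marks the hepatocytes around the central vein, where glutamine synthetase (Glul) is a target. The floxed allele used here loses exon 3 after Cre acts, and that exon encodes the phosphorylation sites that the destruction complex needs.

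The sequence of exon 3 is shown because the engineered change removes it. In the canonical transcript of Ctnnb1 in GENCODE M39, exon 3 of 15 covers transcript positions 314 to 541. It is 228 bases long, which is 6.26% of the 3642 bases of the transcript, and its bases belong to codons 5 to 81. In the line below, capitals mark codons 33, 37, 41 and 45, counted from the start codon, which encode serine, serine, threonine and serine.
Ctnnb1 exon 3: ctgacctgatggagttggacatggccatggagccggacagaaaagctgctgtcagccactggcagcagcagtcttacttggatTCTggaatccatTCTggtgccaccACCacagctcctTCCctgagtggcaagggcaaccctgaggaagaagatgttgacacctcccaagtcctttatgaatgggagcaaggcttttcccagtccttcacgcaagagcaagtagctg
The count table gives 1 value per gene, so transcripts with and without exon 3 were counted together, and RNA of the recombined allele could not be told apart from RNA of the intact one.

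Sequencing depth differed between tumours, with 11687034 to 36964427 counts on genes (median 16664597). Abundance is given as CPM, counts of a gene per 1000000 counts after TMM scaling. The floor that 3 counts allow lay between 0.0812 and 0.257 CPM, and floors cover counting error only. The 8 hepatocyte markers define the labelled tissue and summed to between 30828 and 45290 CPM. The 8 T cell markers summed to at most 4.62 CPM, and 6 of them had no count in at least 1 tumour. The 6 cholangiocyte markers summed to between 14.1 and 139 CPM, and only Cftr among them had no count in some tumour. Tumours 05, 06 and 07 stood apart in RNAs that lack a poly(A) tail, with a mean log2 CPM of Rpph1 and Rmrp of 4.51 to 5.28 against -0.14 to 1.64 in the other 7. Column names carry a tag with 5 values, RMH4_5b (tumour 04), RMH4_5c (05 and 06), RMH18_1d (07 and 08), RMH35_1b (09 and 10) and RMH35_1c (11, 12 and 13). What a tag marks is not given in the labels. If it is a mouse, tumours that share a tag are not independent. P-values of fits and correlations across the 10 tumours that leave tags out may then be too small.

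**Figure D1:**
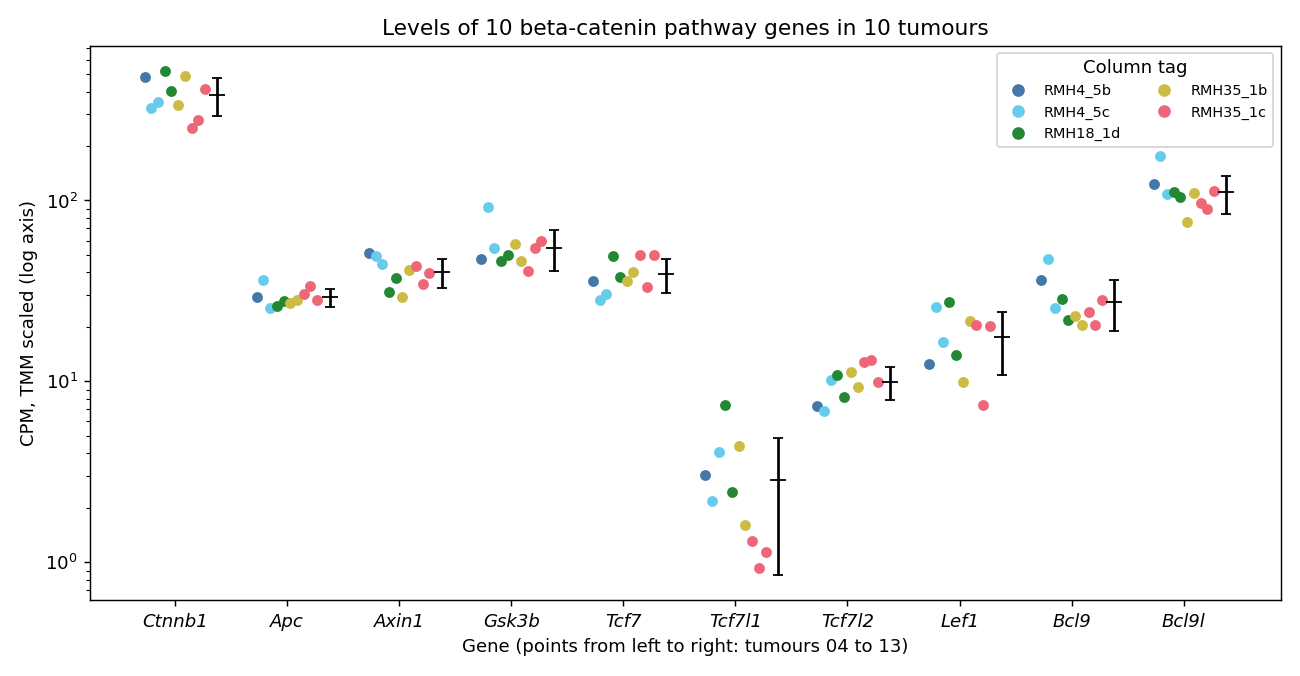
CPM of the 10 genes (x axis) on a log axis (y), with 1 point per tumour in the order 04 to 13, coloured by column tag, and the mean with its SD (n = 10) to the right of the points. Ctnnb1 lies above every other gene in every tumour, and Tcf7l1 has both the lowest level and the widest relative scatter.

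Ctnnb1 was by far the most abundant of the 10 genes. The gene (ENSMUSG00000006932, chromosome 9, 120933400 to 120960507 on GRCm38.p6) had 384 ± 91.8 CPM (SD, n = 10). Its lowest value was 253 CPM, its median 374 CPM and its highest 519 CPM. Tumours 07, 10 and 04 were highest, at 519, 490 and 481 CPM, and tumours 11 and 12 lowest, at 253 and 278 CPM. The highest tumour thus exceeded the lowest 2.05-fold. In tumour 11 the log2 level of Ctnnb1 deviated from the mean of the other tumours by -0.63, while the median deviation of 566 genes on chromosome 9 was -0.21 in the same tumour. In tumour 12, the next lowest, Ctnnb1 deviated by -0.48 beside a chromosome median of 0.11. In tumour 07, the highest, it deviated by 0.52 beside a median of 0.11, and in tumours 04 and 10 by 0.40 and 0.43 beside medians of 0.0026 and 0.05. The part of chromosome-wide shifts in the Ctnnb1 values was not tested.

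Among the destruction complex genes, Apc was nearly constant, Axin1 varied little and Gsk3b stood out in a single tumour. Apc (ENSMUSG00000005871, chromosome 18, 34220297 to 34322190), the large scaffold that brings β-catenin to the complex, had 29.2 ± 3.36 CPM (SD, n = 10). Its values ran from 25.5 CPM in tumour 06 over a median of 28.2 CPM to 36.1 CPM in tumour 05. Only 2.54% of the 14799 genes that passed the filter on low values had a smaller SD of log2 CPM than Apc, at 0.16. Genes were not matched for abundance in this ranking. Axin1 (ENSMUSG00000024182, chromosome 17, 26131217 to 26195811), the scaffold on which the complex assembles, had 40.1 ± 7.28 CPM (SD, n = 10). The lowest Axin1 value was 29.1 CPM in tumour 09, the median 40.4 CPM and the highest 51.1 CPM in tumour 04. All 3 tumours whose tag begins with RMH4 (04, 05 and 06) exceeded the other 7 in Axin1, with 44.8 CPM as their lowest value against 43.2 CPM as the highest of the others. Families were tested over all genes as an alternative to tags, and Axin1 was not called there. Gsk3b (ENSMUSG00000022812, chromosome 16, 38089001 to 38246084), the kinase that phosphorylates β-catenin, had 54.8 ± 14.1 CPM (SD, n = 10). It ran from 40.7 CPM in tumour 11 over a median of 52.2 CPM to 91.5 CPM in tumour 05, and the next highest tumour had 59.7 CPM. Without tumour 05 the SD of log2 Gsk3b fell from 0.32 to 0.18.

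Tcf7 led the TCF/LEF factors, and Lef1 and Tcf7l1 varied most between tumours. Tcf7 (ENSMUSG00000000782, chromosome 11, 52246527 to 52283383), which encodes TCF1, had 39.2 ± 8.20 CPM (SD, n = 10). Its lowest value was 28.3 CPM in tumour 05, its median 36.8 CPM and its highest 50.1 CPM, reached in tumours 11 and 13, with tumour 07 close by at 49.6 CPM. In tumour 13 the deviation of log2 Tcf7 was 0.43, beside a median of 0.32 over 873 genes on chromosome 11, but in tumours 11 and 07 it was 0.43 and 0.41 beside medians of -0.0034 and 0.08. Lef1 (ENSMUSG00000027985, chromosome 3, 131110297 to 131224357), which is also a target of the pathway, had 17.6 ± 6.68 CPM (SD, n = 10). Lef1 ran from 7.45 CPM in tumour 12 over a median of 18.4 CPM to 27.6 CPM in tumour 07, a 3.70-fold range, and tumour 05 came second at 25.9 CPM. Tcf7l2 (ENSMUSG00000024985, chromosome 19, 55741797 to 55933659), which encodes TCF4, had 9.96 ± 2.11 CPM (SD, n = 10). Its lowest value was 6.84 CPM in tumour 05, its median 10.02 CPM and its highest 13.1 CPM in tumour 12. In tumour 12 log2 Tcf7l2 deviated by 0.47, beside a median of 0.23 over 383 genes on chromosome 19, and in tumour 11 by 0.42 beside a median of 0.08.

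Tcf7l1 (ENSMUSG00000055799, chromosome 6, 72626371 to 72789045), which encodes TCF3, a factor known mainly as a repressor, was the rarest and most variable of the 10 genes. It had 2.85 ± 2.00 CPM (SD, n = 10), from 0.927 CPM in tumour 12 over a median of 2.30 CPM to 7.44 CPM in tumour 07, an 8.03-fold range. Its counts lay between 21 and 84 per tumour, above the floor of 3 counts in every tumour. Tumours 10 to 13 held the 4 lowest values, at most 1.61 CPM, whereas tumours 07, 09 and 06 held the highest at 7.44, 4.37 and 4.06 CPM. The 8 endothelial markers (Pecam1, Cdh5 and others) were high and low in many of the same tumours. Their summed level was 363 CPM in tumour 07 and 213 CPM in tumour 09, the 2 highest, and it was at most 50.8 CPM in tumours 10 to 13, the 4 lowest. Tumour 05 went against this, with 188 CPM of endothelial markers and only 2.17 CPM of Tcf7l1. All 8 endothelial markers had counts in every tumour. The 8 stellate and fibroblast markers were likewise highest in tumours 09 and 07, at 1755 and 1567 CPM in sum, and lowest in tumours 10 to 13, at 261 to 386 CPM. The 5 erythroid markers were highest in tumours 07 and 09, at 5931 and 1697 CPM. The part of any of these cells in the Tcf7l1 values was not tested. In these bulk samples, fewer cells of a type and less RNA per cell cannot be told apart.

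**Figure D2:**
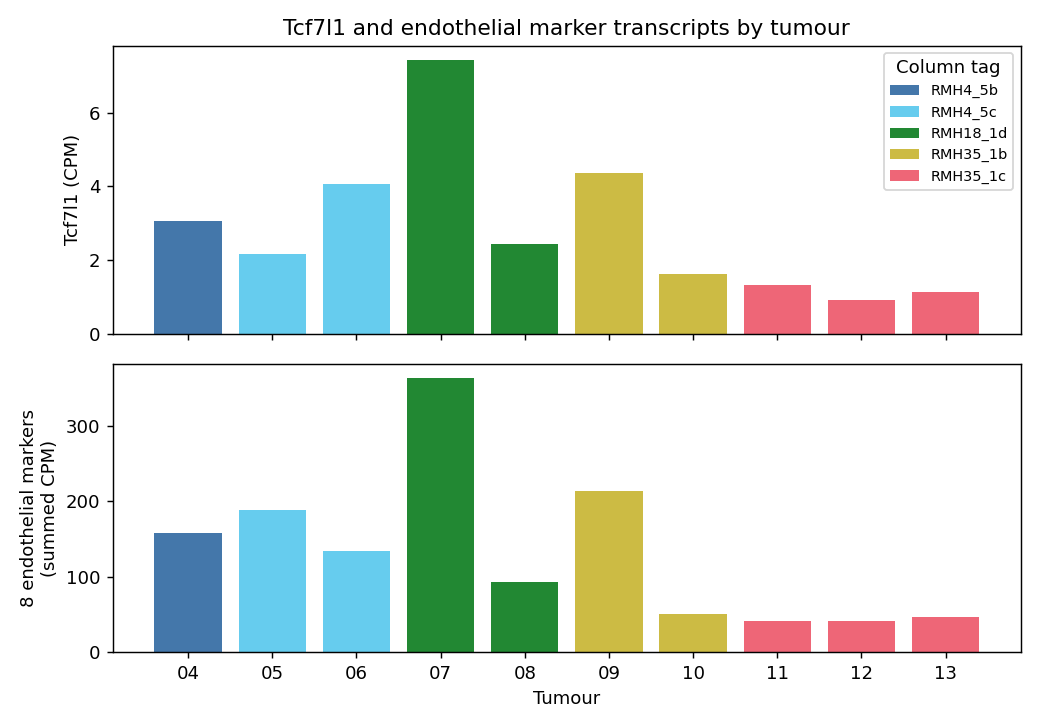
Tcf7l1 in CPM (top) and the summed CPM of 8 endothelial markers (bottom) in each tumour (x axis), with bars coloured by column tag. Both are highest in tumour 07 (7.44 and 363 CPM) and both are low in tumours 10 to 13.

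Both BCL9 adaptors, which tie β-catenin to the coactivator Pygopus, were highest in tumour 05. Bcl9l (ENSMUSG00000063382, chromosome 9, 44482738 to 44511906) had 111 ± 26.4 CPM (SD, n = 10), with 76.5 CPM in tumour 09, a median of 109 CPM and 176 CPM in tumour 05. The next highest tumour had 123 CPM, and without tumour 05 the SD of log2 Bcl9l fell from 0.31 to 0.21. Bcl9 (ENSMUSG00000038256, chromosome 3, 97203658 to 97298402) had 27.6 ± 8.56 CPM (SD, n = 10), from 20.4 CPM in tumour 10 over a median of 24.7 CPM to 47.7 CPM in tumour 05, with tumour 04 next at 36.5 CPM. Apc, Gsk3b, Bcl9 and Bcl9l, 4 of the 10 genes, all peaked in tumour 05, and Tcf7 and Tcf7l2 were lowest there. Of the 14799 genes, 17.5% also peaked in tumour 05 and 14.9% were lowest there. Tumour 05 is among the 3 tumours high in RNAs without a poly(A) tail, and the part of that in its values was not tested.

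**Figure D3:**
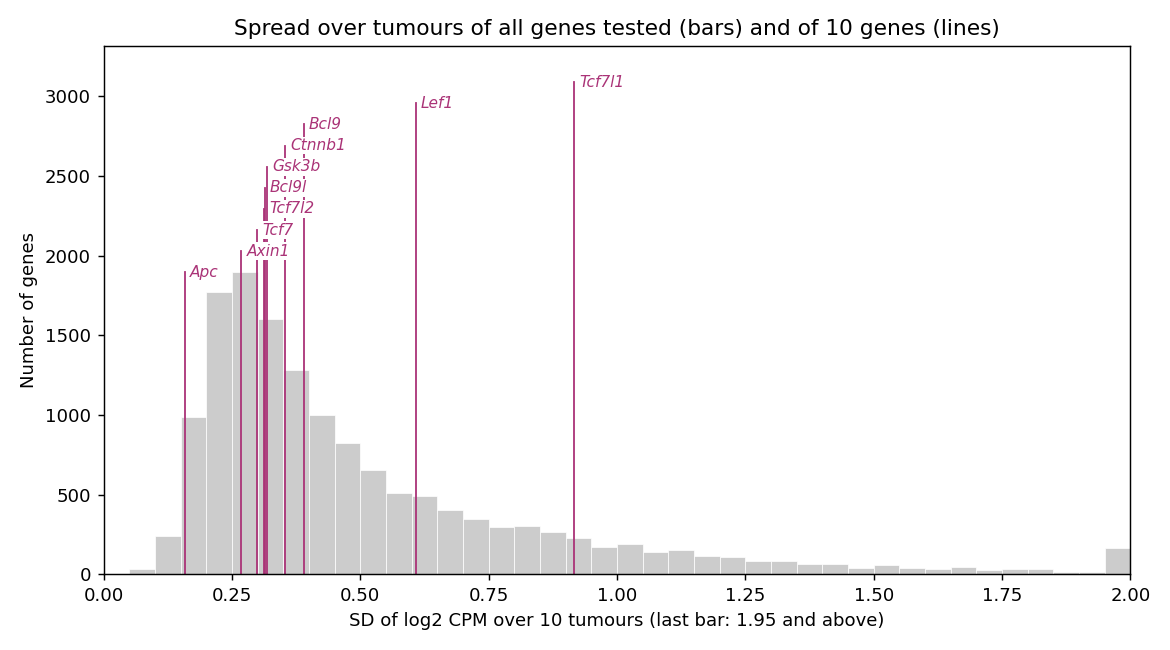
Number of genes (y axis) by SD of log2 CPM over 10 tumours (x axis) for the 14799 genes that passed the filter (bars), with the 10 described genes as lines whose heights carry no value. Apc sits in the low tail at 0.16, and Lef1 and Tcf7l1 lie right of the median of 0.38.

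Most of the 10 genes had an SD of log2 CPM near or below the median of all genes that passed the filter, apart from Lef1 and Tcf7l1. The median SD of log2 CPM was 0.32 over the 10 genes and 0.38 over all 14799 genes, and all 10 genes passed the filter. In this measure 7 of the 10 genes lay below the median of all genes. A median has as many genes below it as above, and this count was not tested. Bcl9, at 0.39, was just above that median, Lef1 at 0.61 exceeded 73.5% of all genes and Tcf7l1 at 0.92 exceeded 87.6%. Counting error alone would give an SD of 0.018 for Ctnnb1, 0.09 for Lef1 and 0.23 for Tcf7l1, so it adds more to rarer genes. Genes were not matched for abundance, and the part of abundance in these ranks was not tested. Among the 7 tumours low in RNAs without a poly(A) tail, 7 of the 10 genes lay below the median, with Bcl9 now below it and Ctnnb1 above it, and Apc had an SD of 0.10.

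Levels of different genes were compared as CPM per kilobase, in which CPM was divided by the length of all annotated exons of a gene. Reads were counted on GRCm38 and these lengths came from GENCODE M39, so the exons counted and the exons measured may differ. On this scale the order of the means was Ctnnb1 at 47.1 ± 11.2, Bcl9l at 13.6 ± 3.26, Tcf7 at 10.2 ± 2.14, Gsk3b at 5.57 ± 1.44, Axin1 at 5.18 ± 0.941, Bcl9 at 3.04 ± 0.943, Lef1 at 1.88 ± 0.715, Apc at 1.63 ± 0.187, Tcf7l2 at 1.11 ± 0.236 and Tcf7l1 at 0.547 ± 0.384 CPM per kilobase (SD, n = 10). Ctnnb1 exceeded Bcl9l in 10 of 10 tumours, with ranges that did not overlap. The order of neighbours also held in 10 of 10 tumours for Axin1 over Bcl9 and for Apc over Tcf7l2. It held in 9 of 10 tumours for Bcl9l over Tcf7, Tcf7 over Gsk3b, Bcl9 over Lef1 and Tcf7l2 over Tcf7l1. Gsk3b exceeded Axin1 in only 6 of 10 tumours, and Lef1 exceeded Apc in 6 of 10, so on this scale the order of neither pair held across tumours.

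This order depends in part on the length used. With the length of the canonical transcript in place of all exons, a choice made after the data were seen, Ctnnb1, Bcl9l, Tcf7 and Tcf7l1 kept the places 1, 2, 3 and 10. Lef1 rose from place 7 to 5, Axin1 from 5 to 4 and Tcf7l2 from 9 to 8, whereas Gsk3b fell from place 4 to 6, Bcl9 from 6 to 7 and Apc from 8 to 9. Axin1 then exceeded Gsk3b in 10 of 10 tumours, at 10.6 ± 1.93 against 6.60 ± 1.70 CPM per kilobase, and Lef1 exceeded Apc in 10 of 10, at 6.90 ± 2.62 against 2.26 ± 0.260 (SD, n = 10). Lef1 also exceeded Bcl9 in 8 of 10 tumours and Tcf7l2 exceeded Apc in 7 of 10, so that the order of these pairs was turned as well. Axin1 exceeded Bcl9 in 10 of 10 tumours with either length. Ctnnb1 moved from 47.1 to 105.5 CPM per kilobase.

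Within each tumour, the composition of TCF/LEF transcripts was described by the share of each factor in the summed CPM per kilobase of the 4 genes. Tcf7 held 74.1% ± 4.76, Lef1 13.7% ± 4.85, Tcf7l2 8.27% ± 2.15 and Tcf7l1 3.99% ± 2.40 (SD, n = 10). Tcf7 had the largest share in 10 of 10 tumours, and Tcf7l1 the smallest in 9 of 10, the exception being tumour 07, where Tcf7l1 held 7.71% and Tcf7l2 6.52%. Tumour 12 had the highest Tcf7l2 share, 13.2%, and the lowest Lef1 share, 7.20%. Tumour 05 had the lowest Tcf7 share, 65.1%, and the highest Lef1 share, 24.5%. With canonical transcript lengths the shares became 52.9% ± 6.57 for Tcf7, 31.5% ± 8.70 for Lef1, 11.6% ± 3.56 for Tcf7l2 and 3.92% ± 2.35 for Tcf7l1. Tcf7 was then largest in 9 of 10 tumours and Lef1 in tumour 05, where it held 49.3%. Tcf7l2 then exceeded Tcf7l1 in 10 of 10 tumours, tumour 07 included, at 8.75% against 7.32%.

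**Figure D4:**
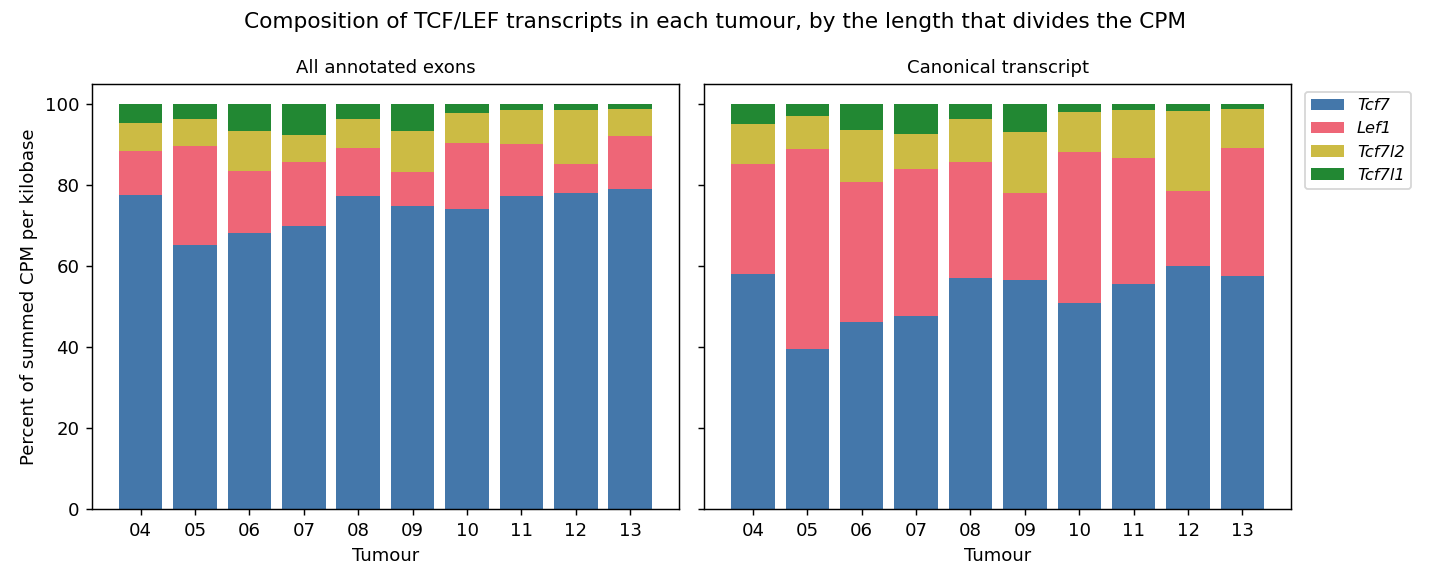
Share of Tcf7, Lef1, Tcf7l2 and Tcf7l1 in their summed CPM per kilobase (y axis, percent) in each tumour (x axis), with CPM divided by the length of all annotated exons (left) or of the canonical transcript (right). Tcf7 is the largest share in every bar on the left and in all but that of tumour 05 on the right.

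Ratios within a tumour do not depend on the scaling between tumours, and those given here use the length of all exons. Bcl9l exceeded Bcl9 in every tumour, by 4.60 ± 0.712 times per kilobase (SD, n = 10), from 3.72 in tumour 09 to 6.07 in tumour 10. Ctnnb1 exceeded Axin1 by 9.39 ± 3.00 times per kilobase, from 5.54 in tumour 11 to 15.8 in tumour 07. The ratio of Ctnnb1 to the sum of the 4 TCF/LEF genes was 3.49 ± 0.802, from 1.83 in tumour 11 to 4.86 in tumour 04. Tumour 11 thus paired the lowest Ctnnb1 with one of the highest Tcf7 levels.

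Promoter windows (RefSeq, GRCm38.p6, 250 bases before to 50 bases after a start site) were searched for the TCF-binding letters CTTTG followed by AA, AT, TA or TT, on both strands. Of the 10 genes, 7 had 13 windows in all, and Apc, Axin1 and Bcl9l had none in the table used. A match occurred in 2 of the 13 windows (15.4%) and in 16.9% of 32817 windows of the same length. The matches, in capitals, lay in windows of internal start sites of Lef1 (chr3:131156044-131156343, forward strand, CTTTGTA on the reverse strand) and Tcf7l2 (chr19:55895071-55895370, forward strand, CTTTGTT), and both windows are shown because their genes are TCF factors themselves. A match describes letters only and marks no tested binding site.
Lef1 window: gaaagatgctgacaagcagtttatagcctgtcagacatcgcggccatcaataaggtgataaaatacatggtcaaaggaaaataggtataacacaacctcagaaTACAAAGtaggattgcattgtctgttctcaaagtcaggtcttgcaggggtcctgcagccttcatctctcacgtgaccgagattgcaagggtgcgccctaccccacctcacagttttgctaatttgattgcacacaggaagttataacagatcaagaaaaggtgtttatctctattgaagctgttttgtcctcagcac
Tcf7l2 window: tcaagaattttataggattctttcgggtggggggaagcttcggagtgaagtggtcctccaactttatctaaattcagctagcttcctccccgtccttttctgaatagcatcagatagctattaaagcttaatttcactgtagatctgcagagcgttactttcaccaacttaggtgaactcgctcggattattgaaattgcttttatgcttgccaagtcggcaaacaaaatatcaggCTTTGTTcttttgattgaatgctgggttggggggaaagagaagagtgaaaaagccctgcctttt

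The first comparison over all genes asked whether tumours with different tags differ beyond the spread among tumours that share a tag. No gene of the 10 passed (edgeR quasi-likelihood test, Benjamini-Hochberg adjusted p below 0.05), where 121 of 14799 genes tested passed, 0.818% of them. At an unadjusted p below 0.05 the count was 0 of 10 members and 2137 of all genes, and DESeq2 called 0 of the 10 and 1383 genes. The smallest adjusted p among the 10 genes was 0.378, for Tcf7l1, and the largest 0.932, for Apc. Tcf7l1 had 1.13 CPM on average in the 3 tumours with tag RMH35_1c, from 0.927 to 1.31 CPM, and 4.94 CPM in the 2 tumours with tag RMH18_1d, where the values of 2.43 and 7.44 CPM lay far apart. For Ctnnb1 the adjusted p was 0.609, and the 2 tumours of tag RMH35_1b, at 337 and 490 CPM, spanned most of the range of its group means.

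The second comparison asked which genes go with the level of Ctnnb1 across tumours. Of the 9 other members, 0 passed, and 0 of 14798 genes passed in edgeR's quasi-likelihood test, 0% of them. At an unadjusted p below 0.05 there were 0 of the 9 members and 657 of all genes, and DESeq2 called 0 of the 9 and 8 genes. The steepest member slope was that of Tcf7l1, 1.42 ± 0.79 on the log2 scale per log2 unit of Ctnnb1 (SE), at an adjusted p of 0.998. This slope was 0.60 without tumour 07, the highest in both genes, and -0.11 when tags entered as a block. The destruction complex genes had slopes of -0.24 for Apc, -0.01 for Axin1 and -0.26 for Gsk3b, all at an adjusted p of at least 0.998. The median slope was 0.10 over the 9 members and -0.04 over all genes tested.

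The third comparison used a feedback score, the mean log2 CPM of Axin2, Nkd1, Notum, Rnf43, Znrf3, Lgr5 and Sp5, which are known direct targets and most of which restrain Wnt signalling. The score ran from 5.91 in tumour 06 to 7.51 in tumour 07, a 3.03-fold range. Of the 10 members 0 passed, where 2 of 14792 genes passed, 0.0135% of them. At an unadjusted p below 0.05 there were 1 of the 10 members, Tcf7, and 1792 of all genes, and DESeq2 called 0 of the 10 and 275 genes. Tcf7 had a slope of 0.47 ± 0.15 (log2 per unit of the score, SE) at an adjusted p of 0.277. Lef1 had a slope of 0.54 ± 0.31 at an adjusted p of 0.527, and Ctnnb1 one of 0.28 ± 0.21 at an adjusted p of 0.636. The Lef1 slope was 1.44 with tags as a block and 1.20 without tumours 05, 06 and 07, and the Ctnnb1 slope was 0.13 without tumour 07 and 0.05 without tumours 05, 06 and 07, with none of these called. Slopes were below 0 for Apc, Axin1, Gsk3b, Bcl9 and Bcl9l, at adjusted p of 0.526 to 0.974. The median slope was 0.03 over the 10 members and -0.01 over all genes tested.

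**Figure D5:**
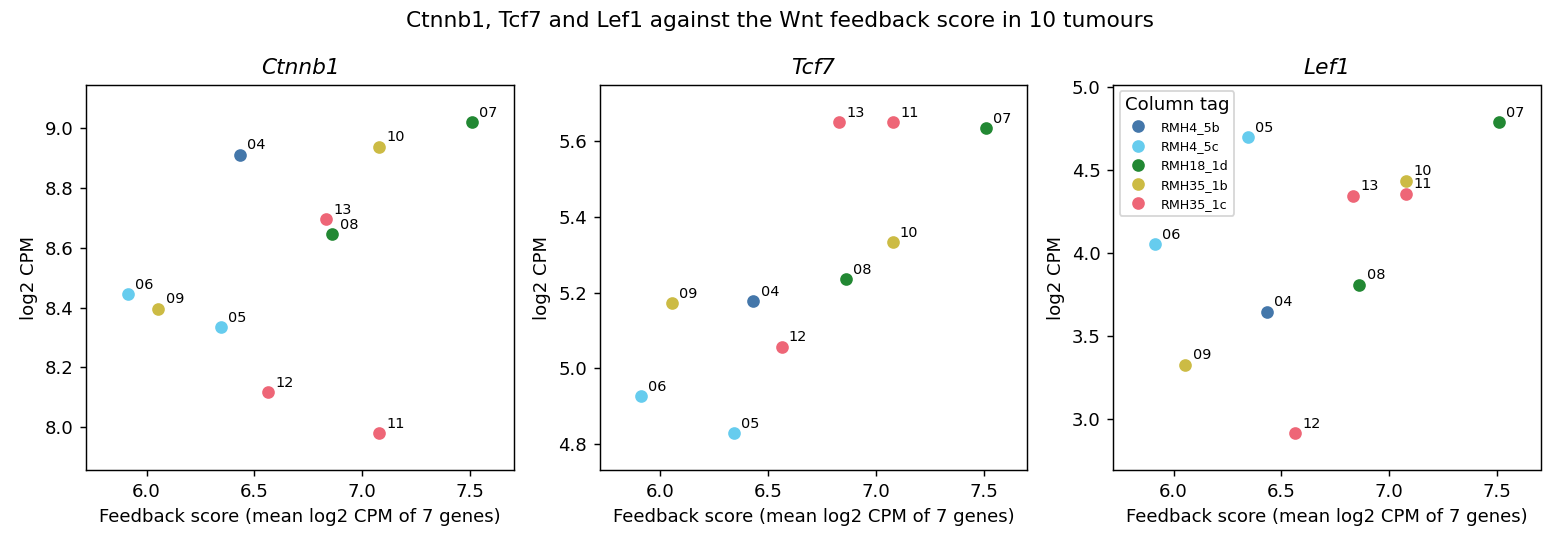
Log2 CPM of Ctnnb1, Tcf7 and Lef1 (y axes) against the feedback score in log2 CPM (x axes) in 10 tumours, labelled by number and coloured by column tag. Tcf7 is low in tumours 05 and 06, whose scores are low, and high in tumours 07, 11 and 13, while Ctnnb1 is lowest in tumour 11 although its score is the second highest.

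A set of 6 relations was tested across the 10 tumours by two-sided permutation tests with 100000 resamples, with Benjamini-Hochberg adjustment over the 6. Tcf7 went with the feedback score at Pearson's r = 0.79 (p = 0.00776, adjusted p = 0.0466) and Spearman's rho = 0.78 (p = 0.0104, adjusted p = 0.0624). Adjusted over all genes tested, Tcf7 had p = 0.277 with this score (edgeR quasi-likelihood test). In that test 12.1% of all genes had an unadjusted p below 0.05. The genes in the 6 relations were chosen with earlier results of these data known. Without tumours 06 and 07, the farthest from the median score, r was 0.67 (n = 8, exact permutation p = 0.0714). On deviations from tag means r was 0.61 (exact permutation p = 0.125), and among the 7 tumours low in RNAs without a poly(A) tail it was 0.62 (exact permutation p = 0.139). The call at an adjusted p below 0.05 was lost without any single one of tumours 04, 05, 06, 07, 08, 10, 11 or 12, where r ranged from 0.73 to 0.80. The 3 tumours high in RNAs without a poly(A) tail were too few for a value of their own.

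Lef1 and the feedback score had r = 0.50 (p = 0.146, adjusted p = 0.438) and rho = 0.50 (p = 0.143, adjusted p = 0.428). Without tumours 06 and 07, r was 0.45 (n = 8, exact permutation p = 0.256), and without single tumours it ran from 0.33 (tumour 07) to 0.65 (tumour 05). Within tags r was 0.87 (exact permutation p = 0.0208, the smallest that 48 arrangements can give), and among the 7 tumours low in RNAs without a poly(A) tail it was 0.76 (exact permutation p = 0.0468). Adjusted over the 6 relations, the value within tags had p = 0.125 by the exact permutation test. In each tag with several tumours, Lef1 and the score ranked the tumours alike, with 05 above 06, 07 above 08, 10 above 09, and 11 above 13 above 12.

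Ctnnb1 and the feedback score had r = 0.36 (p = 0.305, adjusted p = 0.458) and rho = 0.32 (p = 0.369, adjusted p = 0.554). Without tumours 06 and 07, r was 0.10 (n = 8, exact permutation p = 0.815), within tags 0.49 (exact permutation p = 0.354), and among the 7 tumours 0.03 (exact permutation p = 0.945). Single tumours moved this r in both directions, to 0.11 without tumour 07 (adjusted permutation p = 0.769) and to 0.66 without tumour 11 (adjusted permutation p = 0.161). Glul, the glutamine synthetase gene, had 5173 to 14687 CPM, and its relation with Ctnnb1 was r = 0.09 (p = 0.813, adjusted p = 0.813) and rho = 0.12 (p = 0.758, adjusted p = 0.758). Without tumours 07 and 11 this r was 0.09 (n = 8, exact permutation p = 0.842), within tags 0.04 (exact permutation p = 0.938), and among the 7 tumours 0.23 (exact permutation p = 0.614). Neither relation of Ctnnb1 RNA passed the test in these 10 tumours.

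Tcf7 and Lef1 are also expressed in T cells, so both were set beside a T cell marker score, the mean log2 CPM of 8 T cell genes. For Tcf7, r was 0.39 (p = 0.268, adjusted p = 0.458) and rho 0.22 (p = 0.534, adjusted p = 0.641). For Lef1, r was -0.28 (p = 0.434, adjusted p = 0.521) and rho -0.37 (p = 0.297, adjusted p = 0.554). Without tumours 10 and 11, r was 0.28 for Tcf7 (n = 8, exact permutation p = 0.506) and -0.50 for Lef1 (n = 8, exact permutation p = 0.215). Without single tumours, r of Tcf7 ran from 0.14 (tumour 11) to 0.50 (tumour 10), and r of Lef1 from -0.54 (tumour 11) to -0.15 (tumour 09). Within tags r was 0.18 for Tcf7 (exact permutation p = 0.708) and -0.16 for Lef1 (exact permutation p = 0.771). Among the 7 tumours r was 0.23 for Tcf7 (exact permutation p = 0.623) and -0.22 for Lef1 (exact permutation p = 0.618). No single T cell marker exceeded 1.12 CPM in any tumour, and 1 of the 8 passed the filter on low values. Neither relation with the T cell marker score passed the test. The part of T cells in the Tcf7 and Lef1 levels cannot be read from markers this low, and it was not tested.

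The other genes of the pathway were read from the same fits, and 0 passed in any list (edgeR quasi-likelihood test). Of 23 other destruction complex genes tested between tags, 1 had an unadjusted p below 0.05, of 24 nuclear cofactors 2, of 5 junction partners 0, of 17 receptors and transducers 3, of 10 feedback targets 2 and of 12 hepatocyte β-catenin targets 4. Against the Ctnnb1 level these counts were 1 of 23, 0 of 24, 0 of 5, 1 of 17, 1 of 10 and 0 of 12. Against the feedback score they were 3 of 22, 6 of 24, 0 of 5, 3 of 16, 0 of 3 and 6 of 12, with the genes of the score left out. Over all genes, unadjusted p was below 0.05 for 14.4% between tags, 4.44% with Ctnnb1 and 12.1% with the score. Median SDs of log2 CPM were 0.26 for the other destruction complex genes, 0.30 for nuclear cofactors, 0.26 for junction partners, 0.49 for receptors and transducers, 0.48 for hepatocyte targets and 0.68 for feedback targets.

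The most abundant partners of the 10 genes, per kilobase, were as follows. In the destruction complex list, the phosphatase scaffold Ppp2r1a had 129 ± 19.5 CPM, the ubiquitin ligase subunit Skp1 146 ± 24.4 CPM and Axin2, both a scaffold and a feedback target, 161 ± 43.0 CPM (SD, n = 10). Axin2 exceeded Axin1 in CPM in every tumour, with 88.5 CPM as its lowest value against 51.1 CPM as the highest of Axin1. Among nuclear cofactors, Tle5 had 566 ± 137 CPM, the chromatin remodeller Smarca4 154 ± 13.3 CPM and the corepressor Ctbp1 102 ± 20.8 CPM. Among junction partners, α-catenin (Ctnna1) had 192 ± 37.5 CPM, p120-catenin (Ctnnd1) 152 ± 10.2 CPM and N-cadherin (Cdh2) 106 ± 20.8 CPM. Among receptors and transducers, the Wnt coreceptor Lrp5 had 217 ± 56.5 CPM, Dvl1, which relays the receptor signal, 146 ± 36.2 CPM and the R-spondin receptor Lgr5 57.7 ± 23.8 CPM. The feedback inhibitors Nkd1, Notum and Rnf43 had 5.81-, 3.51- and 3.72-fold ranges over the tumours, beside 1.42- to 3.70-fold ranges for the 10 genes other than Tcf7l1. The hepatocyte targets Cyp2e1, Glul and Gulo had 8511 ± 2553, 10609 ± 3008 and 2884 ± 739 CPM (SD, n = 10).

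The genes whose levels followed Ctnnb1 most closely were ranked by Pearson's r of log2 CPM over the 10 tumours, among 8440 protein-coding genes with at least 10 CPM on average. They were Fkbp9 (r = 0.93), Nudt16 (r = 0.87), Hemk1 (r = 0.85), Cln6 (r = 0.84) and Cox6b1 (r = 0.84). These are the highest of many values, given as a description with no test, and several tumours share a tag. When single tumours were left out, r of Fkbp9 stayed between 0.90 and 0.95. The lowest r was then 0.84 for Nudt16, 0.78 for Hemk1, 0.81 for Cln6 and 0.79 for Cox6b1. Fkbp9 had 40.6 to 77.0 CPM, against the range of 253 to 519 CPM of Ctnnb1. Pearson's r does not measure the size of a change, and Cox6b1 had only 198 to 231 CPM. Of the 5 genes, 3 (Nudt16, Hemk1 and Cln6) lie on chromosome 9, as Ctnnb1 does, and 5.52% of the ranked genes lie there.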

How the data were processed

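Polyadenylated RNA of liver tumours was sequenced from stranded mRNA libraries. The authors deposited a table of raw read counts per gene. The submitters' processing notes name TopHat2, HTSeq and GRCm38, with no versions, and the strand setting of the counting was not given in the sources used here, so overlapping antisense reads cannot be told apart. Of 19 columns, 10 carry a number found in the title of a single sample (tumours 04 to 13), which assumes that these numbers agree in meaning, and the other 9 were not used. The tally of reads aligned to several places made up 50.4% ± 3.55 of all counts, those on genes and those in the summary rows together. Reads on no gene made up 4.88% ± 0.954 and ambiguous reads 1.39% ± 0.151 (SD, n = 10), and all stayed out of library sizes. Whether a read aligned to several places was tallied once or more was not checked. Such reads are lost for sequences with near-identical copies.

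Symbols and exon lengths came from GENCODE M39 by stable identifier (34199 of 39179 identifiers matched), positions and promoters from RefSeq on GRCm38.p6. Counts were scaled by TMM, and genes with a mean of at least 0.5 CPM were tested by quasi-likelihood in edgeR 4.0.16 (R 4.3.3, limma 3.58.1), with DESeq2 1.42.0 as an alternative and Benjamini-Hochberg adjustment over all genes tested. Log2 CPM used a prior count of 2. Scripts were tested on simulated data. Python 3.11.15, numpy 2.4.6, pandas 2.3.3, scipy and matplotlib 3.10.9 were used for the rest.

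The members and gene lists were chosen with earlier results of these data known. Named were all members, the 3 most abundant genes per kilobase of each pathway list, list genes with an adjusted p below 0.05, and the 5 genes most like Ctnnb1. Alternatives covered scaling, filters, the test, tags as families or a block, a covariate of RNAs without a poly(A) tail, the prior count and leaving out each tumour.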

Additional observations from a re-analysis of the deposited data

Results flagged for a closer look

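In 22 measures over the 10 tumours, the gap between the most extreme tumour and the next was set against the whole range, and a ratio above Dixon's critical value for 10 samples marked a tumour that stood apart. Chance marks about 1 in 20 such measures, which is 1.10 of 22, and 6 were marked. Tumour 05 was marked 4 times. Its Gsk3b level was 91.5 CPM, with the next tumour at 59.7 CPM, and its Bcl9l level was 176 CPM, with the next at 123 CPM. Its Lef1 share of the summed TCF/LEF level was 24.5%, with the next at 16.4%, and its ratio of Lef1 to Tcf7 per kilobase was 0.376, with the next at 0.228. Tumour 07 was marked for Tcf7l1 at 7.44 CPM, with the next at 4.37 CPM, and tumour 12 for the Tcf7l2 share of 13.2%, with the next at 10.1%. On a log scale only Gsk3b in tumour 05 passed among these 6, with a gap ratio of 0.526. Of the other measures, the ratio of Ctnnb1 to the TCF/LEF sum per kilobase in tumour 11, at 1.83, passed on the log scale, with a gap ratio of 0.529. With canonical transcript lengths, the Lef1 share in tumour 05 (49.3%, next 37.2%) and the Tcf7l2 share in tumour 12 (19.9%, next 14.9%) were no longer marked, and the ratio of Lef1 to Tcf7 in tumour 05 (1.25, next 0.758) still was. The ratio of Ctnnb1 to the TCF/LEF sum depends on that length too. The measures overlap, since the shares and the ratio are computed from the same genes. Tumours 05 and 07 are high in RNAs without a poly(A) tail, and the part of that in these values was not tested.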

How the results depend on the processing

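No member was called in any of the 3 fits under any of the 51 alternative fits. The counts over all genes moved more. Between tags, 121 genes passed, against 1188 with no filter, 1383 with DESeq2, 18 with RNAs without a poly(A) tail as a covariate, 7 with families in place of tags, 6 without tumours 05, 06 and 07, and 10 to 184 without single tumours. With the Ctnnb1 level, 0 genes passed, 8 with DESeq2. With the feedback score, 2 genes passed, against 4 with no filter, 275 with DESeq2, 10 with the covariate, 0 with tags as a block, 0 without tumours 05, 06 and 07, and 0 to 7 without single tumours. The cause was not tested. The r of Tcf7 with the feedback score was 0.61 on deviations from tag means and 0.73 to 0.83 without single tumours. The r of Ctnnb1 with Glul was -0.0688 to 0.249 without single tumours, below 0 without tumour 04 (-0.0688), 09 (-0.04) or 11 (-0.02). The slope of Tcf7l1 on Ctnnb1 was -0.11 with tags as a block. Mean CPM of the 10 genes moved by less than 1 SD under every alternative run, but CPM per kilobase moved by more than that for 6 of the 10 genes with canonical transcript lengths. Leaving out tumours 05, 06 and 07, and dividing by canonical transcript length, were chosen after the data were seen. No paired analysis was possible because only tumour columns could be matched, so all samples analysed form a single group. Depth limits Tcf7l1 most, with 21 counts at its lowest.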

Other observations

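The summed markers of other cell types also differed between tumours. The 8 stellate and fibroblast markers summed to between 261 CPM in tumour 12 and 1755 CPM in tumour 09, and the 5 erythroid markers to between 104 CPM in tumour 13 and 5931 CPM in tumour 07. The 8 macrophage markers summed to between 89.2 CPM in tumour 05 and 272 CPM in tumour 06, and the 4 B cell markers to between 0.703 CPM in tumour 05 and 5.94 CPM in tumour 07. The part of these cells in the levels of the 10 genes was not tested.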
